A study of Mus musculus with 4 samples.

Results

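RGS proteins, the regulators of G protein signalling, switch off signals from G protein-coupled receptors. They speed the hydrolysis of GTP by the alpha subunits of heterotrimeric G proteins, and in lymphocytes they set how long a cell answers chemokines and other attractants. KAP1, encoded by Trim28, is a transcriptional corepressor without a DNA-binding domain of its own, which zinc finger proteins of the KRAB class recruit. The 9 RGS genes described here, Rgs1, Rgs2, Rgs3, Rgs10, Rgs13, Rgs14, Rgs16, Rgs18 and Rgs19, were taken by symbol from the RefSeq gene table, out of 21900 protein-coding genes. They were chosen by name with measured values of these data in view, the KAP1 summit positions and scores, among them a summit at Rgs1. Their counts are therefore given as a description, and no test was made on them.

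KAP1 positions came from chromatin immunoprecipitation and sequencing of regulatory T cells, a CD4 lineage that depends on Foxp3 and holds immune responses in check. The cells were sorted from spleens of C57BL/6 mice and expanded in culture for 2 weeks. An anti-KAP1 antibody was used for 2 samples, and the other 2 samples are inputs, with no antibody, which were not analysed here. The labels name no treatment, genotype or age, and do not say which markers the sort used or whether the replicates came from separate mice or cultures. Each KAP1 sample has a list of summits, the positions of highest enrichment within peaks, with 8862 summits in replicate 1 and 79515 in replicate 2. Read depth is unknown, and the labels' cell type cannot be checked from binding positions, which do not measure expression.

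Throughout, a shared or paired summit is one with a summit of the other replicate within 200 bp, an end is the 1 kb on either side of the lowest or highest coordinate of a gene, and the body is the rest of the gene. A score is the authors' −log10 of either a p-value or a q-value, and its percentile rank is its place within its own list. Positions are on mm10, which has the GRCm38 coordinates.

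KAP1 was mapped by both replicates within 20 kb of 5 of the 9 genes, namely Rgs1, Rgs3, Rgs10, Rgs14 and Rgs19. Among all coding genes the share was 32.7%. At an end, 3 of the 9 had a shared summit (Rgs1, Rgs3 and Rgs14), where 8.56% of coding genes did. In the body, 2 of the 9 had one (Rgs3 and Rgs10), where 12.4% of the coding genes long enough to have a body did. Taken alone, replicate 1 gave the same 3 genes at an end (9.42% of coding genes) and the same 2 in the body (13.3%), and replicate 2 gave 5 genes at an end (22.2%) and 4 in the body (54.4%). Replicate 2 placed a summit within 20 kb of each of the 9 genes, as it did for 80.9% of coding genes, and replicate 1 did so for 6, against 34.3%. Rgs13, Rgs16 and Rgs18 had no replicate 1 summit in that span.

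The spans of the 9 genes held 14 replicate 1 summits and 39 replicate 2 summits, none counted for more than 1 gene. Of the replicate 1 summits, 10 had a partner, or 71.4%, against 87.1% of the whole list. Of the replicate 2 summits, 25.6% had one, against 9.71% of the whole list. The genes were chosen with the summits in view, and Rgs3 gave 4 of the 10 paired sites and Rgs10 gave 3. The whole list also holds summits far from any gene. These shares are therefore a description only. The 10 paired sites were placed 0 to 35 bp apart by the replicates, with a median of 6 bp, the same median as over all shared sites. The scores of either list take few distinct values (650 among the 8862 of replicate 1), so that sites at different genes can carry the same score.

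**Figure D1:**
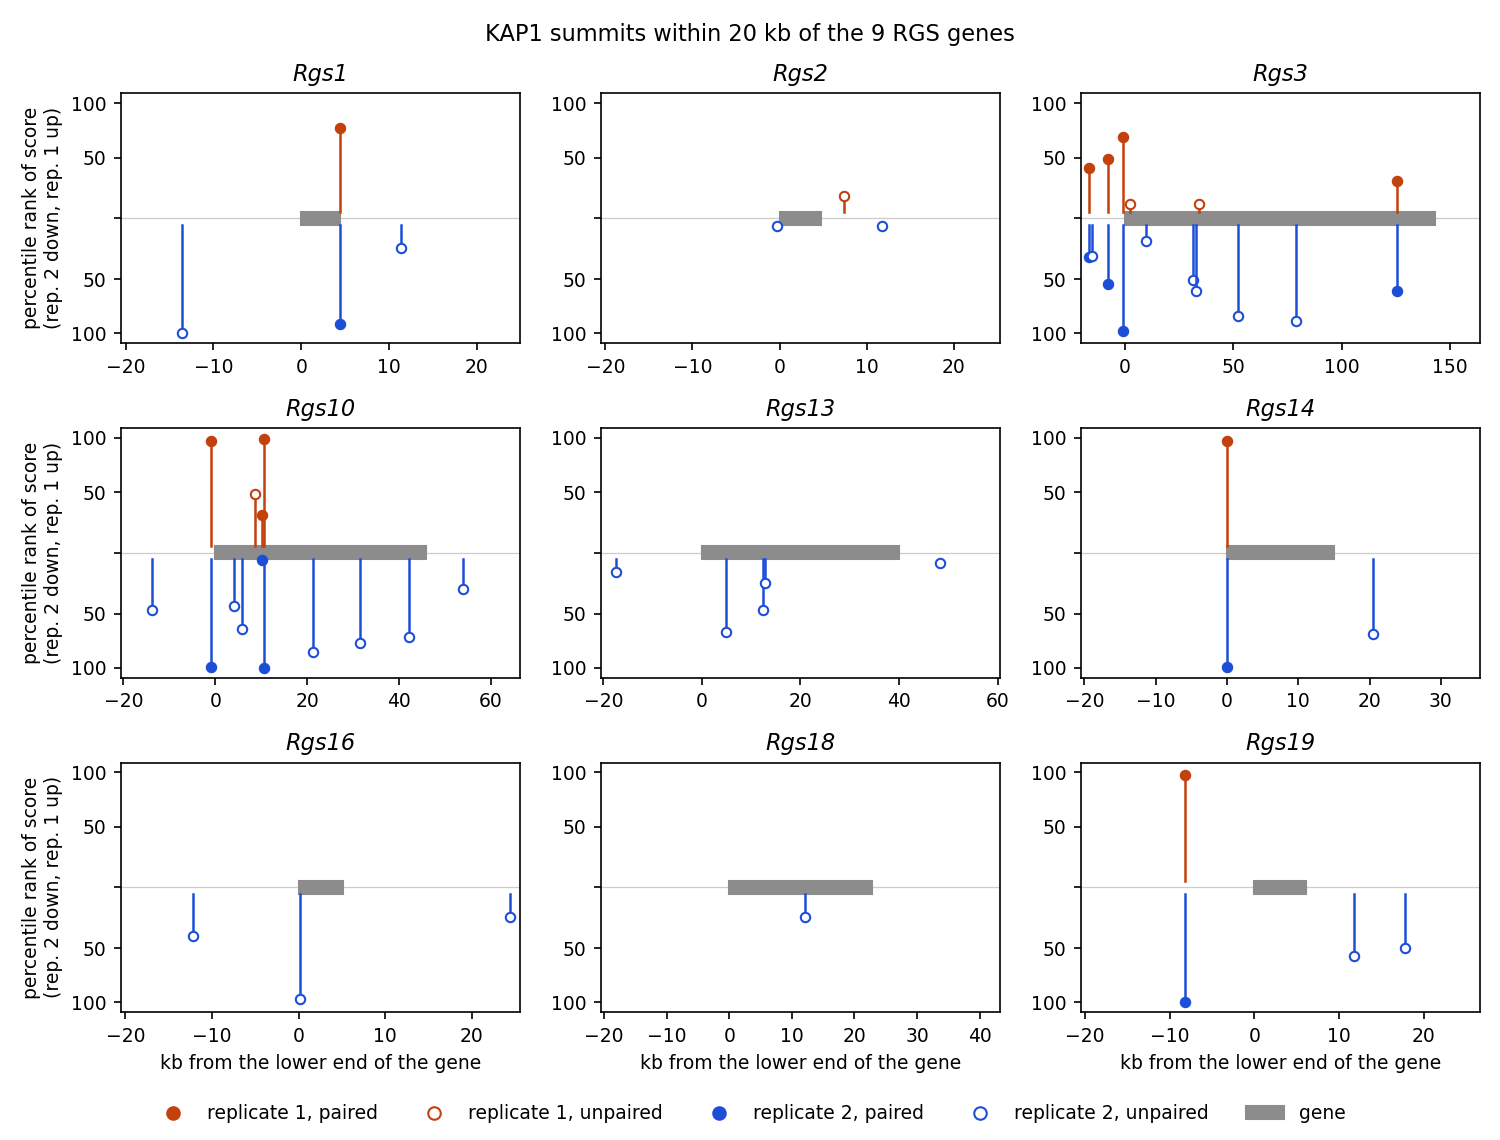
Summits within 20 kb of the 9 RGS genes, by distance in kb from the lower end of each gene (x axis, drawn to a separate scale for each gene). Stem height is the percentile rank of the score within its list, replicate 1 upward and replicate 2 downward, filled where paired. Rgs10, Rgs14 and Rgs19 carry tall filled stems in both directions, and Rgs16 has a tall replicate 2 stem at its lower end with none above it.

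Rgs10 had the strongest site of the set, and it lay deep inside the gene. Rgs10 encodes a small member of the family, little more than the RGS domain, that is abundant in immune cells. The gene covers chr7:128373621-128419506. The summit was at position 128384258 in replicate 1, with a score of 51.9 (percentile rank 98.9), and at 128384236 in replicate 2, with a score of 68.1 (rank 99.7). Both replicates thus placed it in the top of their lists, and 1.24% of all shared sites had a higher mean rank. It lay 10637 bp inside the lower end by replicate 1. Rgs10 is on the minus strand, so this is the 3′ part of the gene, 33914 bp downstream of its listed start site.

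A second strong Rgs10 site lay just past the lower end. It was at position 128372578 in replicate 1 (score 35.5, rank 96.7) and 1 bp away in replicate 2 (43.1, rank 99.1). With 1043 bp between it and the gene it missed the limit of 1 kb, while the farthest of the summits counted at an end, that of Rgs3, was 886 bp away in replicate 1 and 893 bp in replicate 2. A weak pair lay 393 bp from the strongest site by replicate 1 (383 bp by replicate 2), with a score of 5.10 in replicate 1 and of 3.23 in replicate 2, the latter at rank 0.2 of its list. Replicate 1 also had an unpaired summit in the body (7.25), 1577 bp from the nearest replicate 2 summit. The body held 7 replicate 2 summits, or 1.60 per 10 kb, against 0.372 per 10 kb over all coding gene bodies. Shared body summits came to 0.456 per 10 kb at Rgs10, against 0.0341 over all bodies, with the weak pair counted as 1 of its 2. Among coding genes within 1.5-fold of the length of Rgs10, 17.6% had a shared body summit and 78.0% a replicate 2 summit in the body. Counting 3 shared summits within 20 kb, Rgs10 was among 4.99% of coding genes with 3 or more (5.93% of those within 1.5-fold of its length). With scores at or above the median of each list it had 1 shared body summit and 2 shared summits within 20 kb. The counts were the same with replicate 2 reduced to its highest scores. Coding genes were not recounted under these filters.

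Rgs14 carried a site of similar rank directly at its lower end. Rgs14 encodes a scaffold that joins an RGS domain to domains binding Ras-family GTPases and inactive Gi alpha subunits. The gene covers chr13:55369732-55384687. The summit lay 37 bp outside the gene at position 55369695 in replicate 1 (score 37.4, rank 97.3) and 44 bp outside in replicate 2 (45.6, rank 99.2). Rgs14 itself was the nearest coding gene. The other summit in its span was an unpaired one of replicate 2, 5477 bp above the higher end (10.3).

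The shared site near Rgs19 belonged by position to another gene. Rgs19 encodes GAIP, a regulator of Gi-type alpha subunits. It covers chr2:181688419-181694537, and the summit lay 8218 bp below its lower end, at position 181680201 in replicate 1 (score 37.4, rank 97.3) and at 181680236 in replicate 2 (54.4, rank 99.5). It was 96 bp outside Tcea2, a transcription elongation factor gene, by replicate 1, and 61 bp outside it by replicate 2. At Rgs19 proper neither replicate had a summit at an end or in the body. The nearest replicate 2 summit to any of its 3 listed start sites was 6253 bp away, upstream.

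Rgs1, a gene induced by activation in lymphocytes whose product dampens chemokine responses, had its shared summit at an end. The gene covers chr1:144244669-144249104, and the summit lay 14 bp above the higher end in replicate 1 (score 13.2, rank 77.5) and 10 bp above it in replicate 2 (16.2, rank 91.4). These ranks were below those at Rgs14 and at the 2 strong Rgs10 sites in both lists, and 26.5% of all shared sites had a higher mean rank. The strongest replicate 2 summit near Rgs1 was a different one. At position 144231110, 13559 bp below the lower end, replicate 2 had a score of 45.9 (rank 99.2), and the nearest replicate 1 summit was 18008 bp away. Of the 617 replicate 2 summits with that score or a higher one, 9.08% had no partner.

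Rgs3, the largest gene of the set at 143.2 kb (chr4:62559835-62703019), encodes isoforms with and without a PDZ domain. It had 4 shared summits within 20 kb, a number that 1.92% of coding genes and 4.07% of those within 1.5-fold of its length reached or passed. With scores at or above the median of each list it had 2. With replicate 2 reduced to its highest scores it had 1, that at its end. Coding genes were not recounted under these filters. The shared summit at the lower end of Rgs3 lay on the side of its first listed start site. It had a score of 10.6 (rank 68.9) in replicate 1 at position 62558949 and of 26.6 (rank 97.5) in replicate 2 at 62558942. In the body, both replicates placed a summit on the same base, 62685356, with scores of 5.10 and 9.45. The remaining pair of sites, 7742 and 16551 bp below the gene by replicate 1, lay inside the neighbouring gene 4933430I17Rik, with scores of 7.25 and 6.16 in replicate 1 and of 9.09 and 7.27 in replicate 2. Apart from the end site in replicate 2, the paired Rgs3 summits had ranks between 28.6 and 68.9. The body held 6 replicate 2 summits, or 0.425 per 10 kb, near the 0.372 of all bodies. Among coding genes within 1.5-fold of its length, 28.1% had a shared body summit.

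**Figure D2:**
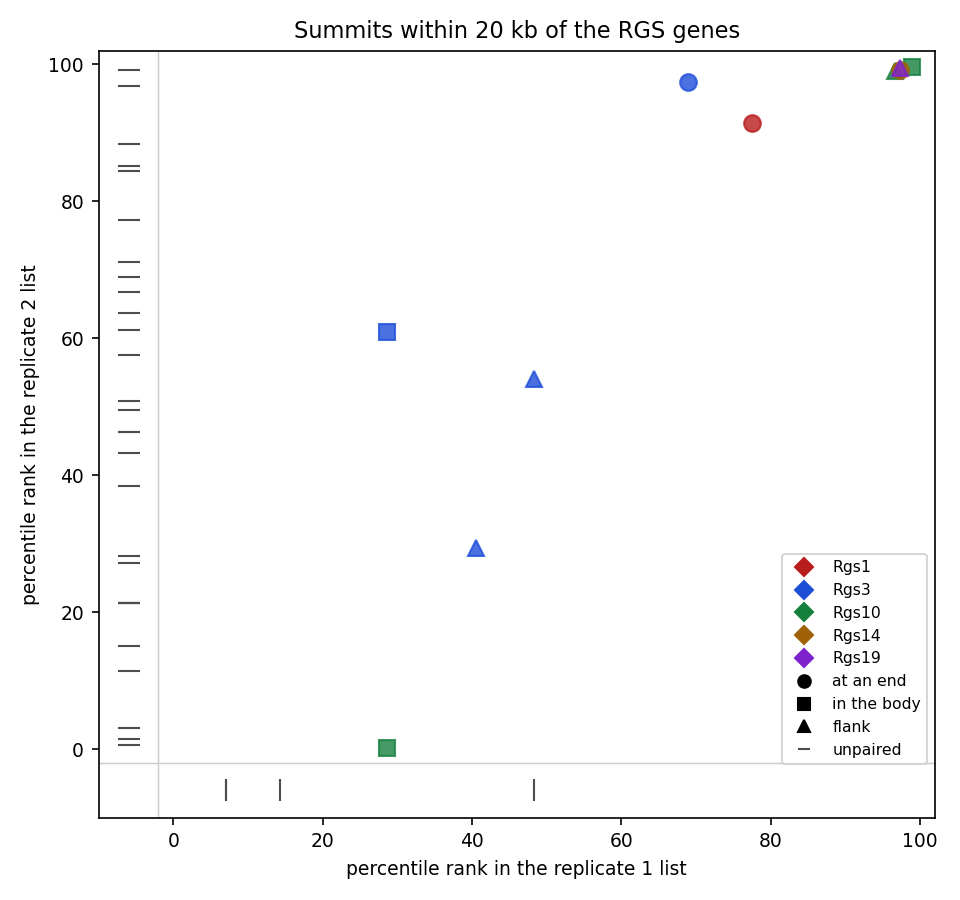
Percentile rank of each summit within 20 kb of the RGS genes in the replicate 1 list (x axis) and the replicate 2 list (y axis). Colours give the gene and shapes the location, and ticks along the margins are unpaired summits (ticks of equal rank overlie each other). The 4 sites above rank 95 in both lists, at Rgs10 (2), Rgs14 and Rgs19, overlap in the upper right corner.

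Rgs16, which encodes an activation-induced regulator of Gi and Gq alpha subunits, differed between the lists. The gene covers chr1:153740353-153745468 on the plus strand. Replicate 2 had a summit at position 153740481, 128 bp downstream of the start site, with a score of 23.8 (rank 96.8). The nearest replicate 1 summit was 122.7 kb away, far beyond the widest pairing distance tried, 500 bp. Of the 2548 replicate 2 summits with that score or a higher one, 28.2% were unpaired. Across coding genes, 13.4% had a replicate 2 summit at an end and no replicate 1 summit at one. Rgs16 and Rgs2 were such genes. At Rgs2, whose product prefers Gq alpha subunits, the replicate 2 end summit was weak, with a score of 4.0 (rank 1.5). It lay 274 bp below the lower end, which is the 3′ end of this gene on the minus strand, and 5085 bp downstream of the start site. The replicate 1 summit nearest to Rgs2 was 2606 bp upstream of its start site, scored 4.17 and lay 4310 bp from the nearest replicate 2 summit.

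Rgs13, known from germinal centre B cells and mast cells, had 3 replicate 2 summits in its body, with scores of 10.2, 8.31 and 6.50, and none of replicate 1 within 20 kb. Rgs18, known from platelets and megakaryocytes, had 1 replicate 2 summit in its body (6.50, rank 21.4) and no other in its span. A replicate 2 summit in the body was found for 75.3% of coding genes within 1.5-fold of the length of Rgs13 and for 59.6% of those like Rgs18 in length.

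Rgs1, Rgs2, Rgs13, Rgs18 and Rgs16 all lie on chromosome 1. The first 4 form a cluster, with gaps under 1 Mb between them. Rgs16 is 8.96 Mb above it. With 20 kb added on either side, the cluster covers chr1:143979338-144795427, or 816.1 kb, and its 5 coding genes are all RGS genes. The fifth is Rgs21, between Rgs1 and Rgs18. The cluster held 6 summits of replicate 1, 22 of replicate 2 and 5 shared ones. That is 6.13 shared summits per Mb, against 2.49 per Mb over chromosome 1, while replicate 2 summits were at 27.0 per Mb, against 30.2.

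Most of the shared cluster sites lay away from the gene bodies, above Rgs1. From the end of Rgs1 toward Rgs21 there were 4 shared summits within 86.4 kb, beginning with the Rgs1 end site. The next lay 24.3 kb above Rgs1 (position 144273385, scores 7.25 in replicate 1 and 7.18 in replicate 2). After it came one 58.1 kb above Rgs1 (144307231, scores 4.19 and 8.76) and one 86.4 kb above it (144335490, scores 6.49 and 23.2). The last of these was at rank 96.6 of replicate 2 and at rank 43.5 of replicate 1. The fifth shared site was 27.6 kb below Rgs13 at position 144109803, inside the noncoding RNA gene Gm35356, with scores of 9.92 and 21.0. No shared summit of the cluster lay inside a coding gene. These genes are short beside the cluster's 816.1 kb, from 4.4 kb (Rgs1) to 48.0 kb (Rgs21), so most of it lies outside them. Around Rgs21, a gene outside the set of 9, neither replicate had a summit within 20 kb, as for 19.1% of coding genes. The longest stretch of the cluster without a summit of replicate 2 ran for 238.9 kb across Rgs21.

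Equal windows of the cluster's length were tiled along chromosomes 1 to 19 and X to give a background. Of the 2833 windows with a coding gene, 22.8% had as many shared summits as the cluster or more, and the median window had 1. Among the 1441 windows with 1 to 5 coding genes, 7.63% did, and the median was 0. For replicate 2 summits these shares were 59.1% and 42.8%. The cluster's shared count thus stood in the upper part of gene-poor windows and in a common range of all windows. With scores at or above the median of each list it was 2, and with replicate 2 reduced to its highest scores it was 3. The windows were not recounted under these filters.

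**Figure D3:**
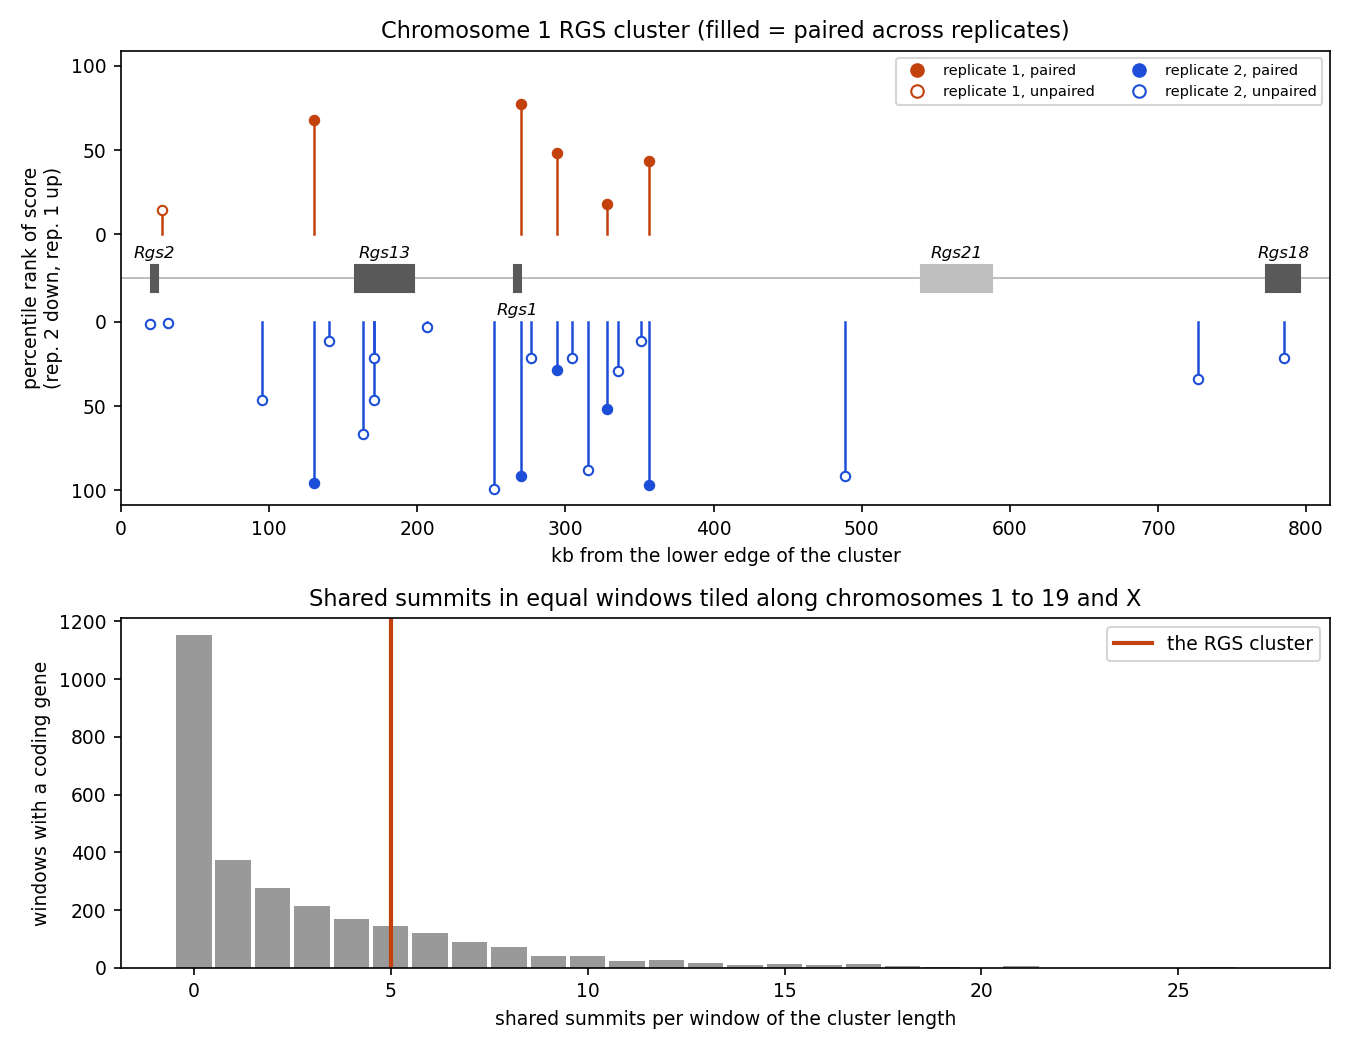
Upper panel, summits across the chromosome 1 cluster by kb from its lower edge (x axis), with stem height as the percentile rank in each list, filled where paired, and genes as boxes (Rgs21, outside the set, in light grey). Lower panel, number of tiled windows (y axis) by their shared summits (x axis), with the cluster's 5 marked. The filled stems stand below Rgs13 (1 site) and from Rgs1 upward (4 sites), and none lies near Rgs21 or Rgs18.

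Promoter windows of 300 bases, from 250 before the start site to 50 after it (RefSeq, GRCm38.p6), were matched for 6 of the 9 genes, at 9 start sites. Rgs1, Rgs14 and Rgs18 were not matched. The 250 bases before the start are shown for 5 genes that differ in KAP1 and in CpG content, read 5′ to 3′ on the strand of the gene, with every CpG in capitals. Rgs16 is shown for its replicate 2 summit just past the start, Rgs3 for its shared summit farther upstream, Rgs10 for a start without a summit in a gene with a strong site elsewhere, and Rgs2 and Rgs13 as neighbours in the cluster. They lie at chr1:153740103-153740352 (plus strand, Rgs16), chr4:62559597-62559846 (plus, Rgs3), chr7:128418173-128418422 (minus, Rgs10), chr1:144004150-144004399 (minus, Rgs2) and chr1:144177373-144177622 (minus, Rgs13).
Rgs16: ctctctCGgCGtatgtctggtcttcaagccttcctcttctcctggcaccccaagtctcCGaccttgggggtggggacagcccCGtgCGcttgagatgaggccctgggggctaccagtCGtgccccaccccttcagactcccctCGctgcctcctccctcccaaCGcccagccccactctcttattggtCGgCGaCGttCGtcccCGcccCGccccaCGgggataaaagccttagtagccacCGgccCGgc
Rgs3: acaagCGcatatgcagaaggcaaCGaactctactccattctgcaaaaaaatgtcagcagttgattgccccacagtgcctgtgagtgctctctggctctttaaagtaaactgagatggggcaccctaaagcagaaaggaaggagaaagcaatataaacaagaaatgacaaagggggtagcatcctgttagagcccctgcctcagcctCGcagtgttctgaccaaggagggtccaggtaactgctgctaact
Rgs10: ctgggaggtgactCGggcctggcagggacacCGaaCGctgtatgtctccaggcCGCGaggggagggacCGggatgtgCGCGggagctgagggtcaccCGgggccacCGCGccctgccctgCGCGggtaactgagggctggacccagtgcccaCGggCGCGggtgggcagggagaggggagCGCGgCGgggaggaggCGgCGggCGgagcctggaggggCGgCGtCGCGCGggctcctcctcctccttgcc
Rgs2: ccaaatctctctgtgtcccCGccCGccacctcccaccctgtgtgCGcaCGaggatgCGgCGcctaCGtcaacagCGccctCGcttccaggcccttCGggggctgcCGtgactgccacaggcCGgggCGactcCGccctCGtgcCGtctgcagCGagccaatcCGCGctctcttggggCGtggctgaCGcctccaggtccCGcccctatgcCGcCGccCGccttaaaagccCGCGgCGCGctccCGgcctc
Rgs13: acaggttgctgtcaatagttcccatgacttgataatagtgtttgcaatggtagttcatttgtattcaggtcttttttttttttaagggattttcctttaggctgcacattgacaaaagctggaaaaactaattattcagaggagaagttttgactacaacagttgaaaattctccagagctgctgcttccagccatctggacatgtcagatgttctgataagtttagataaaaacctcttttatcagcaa

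The stretches held 17 CpGs at Rgs16, 3 at Rgs3, 27 at Rgs10, 30 at Rgs2 and 0 at Rgs13. Over the whole windows the observed to expected CpG ratio was 0.72 for Rgs16, 0.22 for the first Rgs3 start, 0.80 for Rgs10, 0.92 for Rgs2 and 0 for Rgs13. The second Rgs3 start had 0.35, and the 3 Rgs19 starts had 0.19, 0.81 and 0.94. The median over the 21263 start sites of coding genes was 0.57, and 47.7% of them had 0.6 or more, as did 5 of the 9 RGS start sites. GC content ran from 36.7% at Rgs13 to 76.0% at Rgs10.

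KAP1 at the start sites was set beside their CpG content. Of coding start sites with a ratio of 0.6 or more, 12.9% had a shared summit within 1 kb, against 3.13% of those with a lower ratio. Of the 9 RGS start sites, none of the 5 with a ratio of 0.6 or more had one, and 1 of the 4 with a lower ratio did, the first Rgs3 start, with summits 898 bp upstream in replicate 1 and 905 bp in replicate 2. A replicate 2 summit lay within 1 kb of 1 of the 5, that of Rgs16, where the share of all such starts was 24.3%, and of 1 of the 4, where it was 9.10%. These counts are too small to set the RGS starts apart, and Rgs1 and Rgs14, both with a shared end summit, are not among them. At Rgs10 the nearest replicate 2 summit was 2297 bp downstream of the start.

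Simple promoter motifs were searched in the 250 bases before each start, on both strands. GGGCGG, the GC box, was found 4 times at Rgs2, 2 times at Rgs10 and 2 times at Rgs16, where the copies share a base. It was also found 2 times at 1 Rgs19 start, 1 time at another and 1 time at the second Rgs3 start, and 42.6% of coding start sites had it. CCAAT was found 1 time at Rgs2 and 1 time at Rgs16 (35.4% of start sites), and TATAAA 1 time at either Rgs3 start (11.6%). Rgs13 had none of these in the stretch shown. No match of one motif overlapped a match of another.

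**Figure D4:**
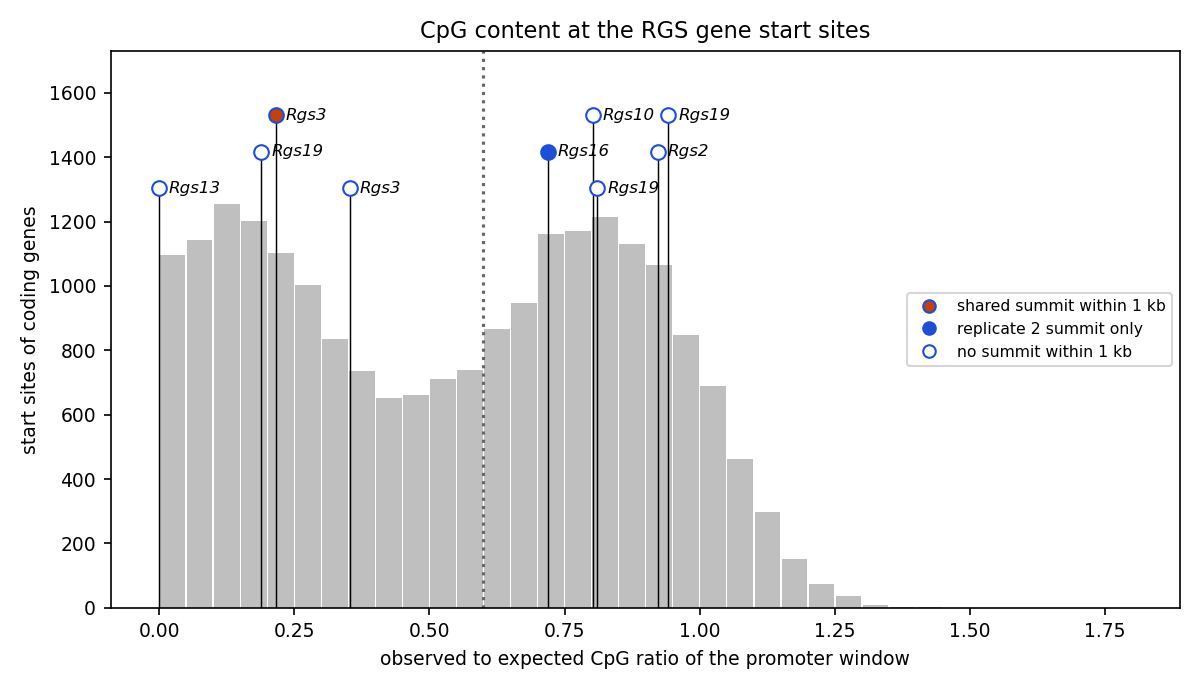
Observed to expected CpG ratio of promoter windows (x axis), with the number of coding start sites per bin as bars (y axis) and the 9 RGS start sites as labelled points, whose height has no meaning. The dotted line is at 0.6. The point with a shared summit within 1 kb, at Rgs3, is on the CpG-poor side.

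The rest of the pathway was described by lists that were also chosen with earlier results known. Of the 12 other RGS genes, many of them known from neurons, 1 had a shared end summit (8.33%, against 8.56% of coding genes). None had a shared body summit, against 12.4% of coding genes with a body. Within 20 kb, 3 had one (25%, against 32.7%). These genes are long, with a median of 81.8 kb against 15.0 kb for the set of 9. A replicate 2 summit in the body was found for 9 of the 12, against 54.4% of all coding genes with a body. The share was 78.0% among coding genes within 1.5-fold of the length of Rgs10 (45.9 kb). It was 94.7% among those within 1.5-fold of the length of Rgs3 (143.2 kb). For shared body summits, found for none of the 12, these shares were 17.6% and 28.1%. The end summit was that of Rgs17 and was weak, with scores of 3.21 and 5.31. It lay 649 bp outside Rgs17 by replicate 1 and belonged by position to an end of the neighbouring gene Mtrf1l. It was 1 bp inside that end by replicate 1 and 3 bp outside it by replicate 2. The sites near Rgs12 and Rgs22 lay closer to Hgfac and Fbxo43.

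Among 28 genes of heterotrimeric G protein subunits, the partners on which RGS proteins act, 3 had a shared end summit (10.7%, against 8.56% of coding genes). A shared body summit was found for 5 of the 27 with a body (18.5%, against 12.4%). Within 20 kb, 12 of the 28 had one (42.9%, against 32.7%). The highest ranking were Gng10, a gamma subunit (scores 17.0 and 23.3 at its end), Gng7 (19.8 and 17.5 in its body), Gna13, an alpha subunit (13.2 and 22.0 at its end), and Gna15 (9.50 and 11.2 in its body). Of 11 genes of G protein regulators, receptor kinases and arrestins, 3 had a shared summit at an end (27.3%) and 7 within 20 kb (63.6%). In the body, 2 of the 10 with a body had one (20%). Ric8b, a chaperone of alpha subunits, had scores of 32.5 and 54.1 at its end, and Arrb2, an arrestin gene, had 12.2 and 17.3. The receptor kinase genes Grk2 (10.7 and 11.2) and Grk6 (4.61 and 13.0) had shared body summits.

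Of 20 chemoattractant and related receptors of lymphocytes, 3 had a shared end summit (15%, against 8.56% of coding genes). A shared body summit was found for 4 (20%, against 12.4%), and a shared summit within 20 kb for 13 (65%, against 32.7%). Ptger4, a receptor for prostaglandin E2, had scores of 43.4 and 89.5 in its body, and Ccr4, a chemokine receptor of regulatory T cells, had 38.3 and 57.9. S1pr4 and Ccr10 had end summits with scores of 11.3 and 20.9, and of 11.9 and 12.6.

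Markers of cell types were counted in the same way, and among all coding genes the shares were 8.56% at an end, 12.4% in the body and 32.7% within 20 kb. Of 12 regulatory T cell markers, 4 had a shared end summit, 5 had one in the body and 9 had one within 20 kb, led by Il2ra (58.3 and 78.3), Tigit (34.3 and 47.8), Nrp1 (17.9 and 31.9) and Entpd1 (13.4 and 30.0). None of 12 B cell markers had a shared summit at an end or in the body, and 5 had one within 20 kb. Of 12 platelet and megakaryocyte markers, none had one at an end, 1 had one in the body, Itgb3 (5.02 and 25.3), and 3 had one within 20 kb. Binding at a gene does not show whether the cells express it.

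**Figure D5:**
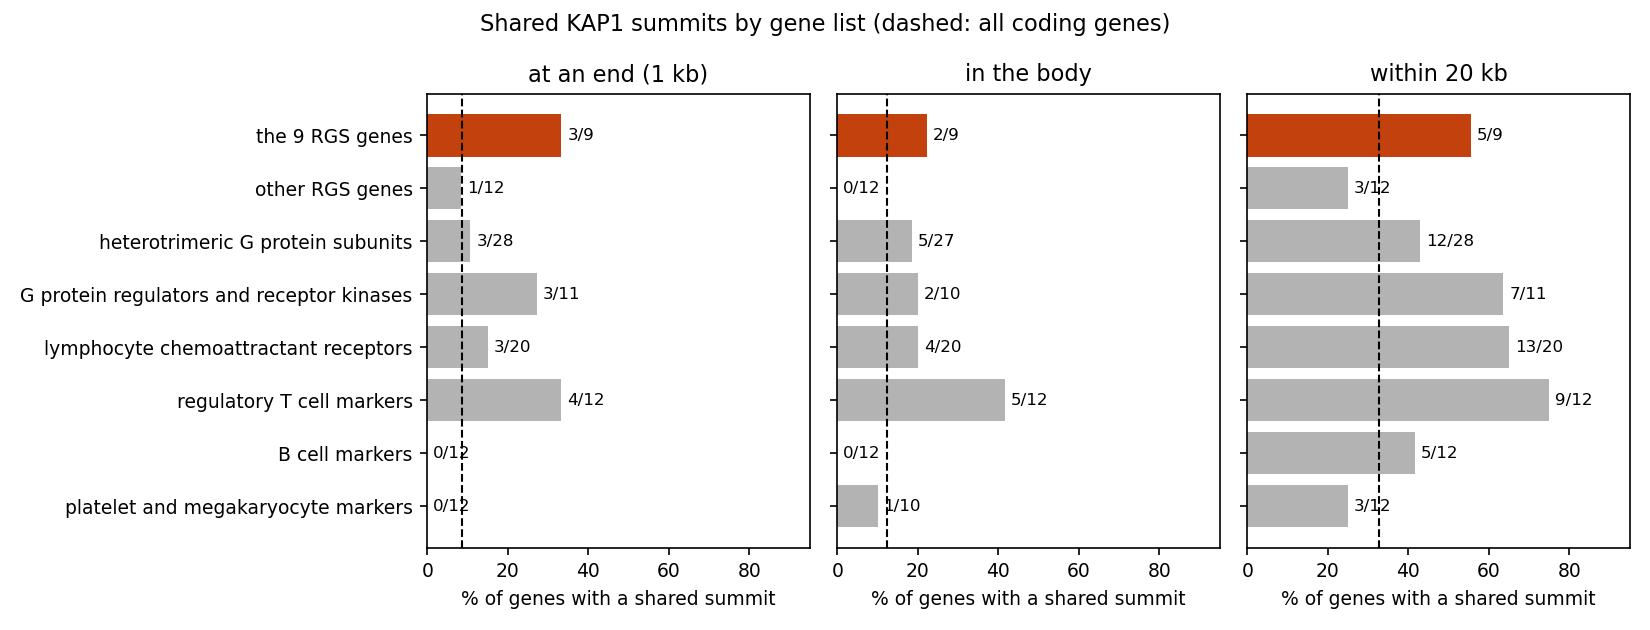
Share of the genes of each list with a shared KAP1 summit (x axis, %) at an end, in the body and within 20 kb, with counts beside the bars and the share of all coding genes as a dashed line. The 9 RGS genes reach 3 of 9, 2 of 9 and 5 of 9, and the 12 other RGS genes 1, 0 and 3 of 12.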

How the data were processed

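Bowtie2 2.2.9, Picard 2.1.1, MACS2 2.2.1 and the build mm10 are named in the submitters' processing notes. For their settings, the control and the threshold, nothing was given in the sources used here. Per the labels' protocols, libraries were made with a DNA SMART ChIP-Seq kit from fragments of 150 to 400 bp. Each deposited list gives the summits of 1 KAP1 sample with a score, the −log10 of either a p-value or a q-value, set by the authors' peak caller. Scores served here as ranks, filters or descriptions inside 1 list. The mean rank of a shared site averages its percentile ranks in the 2 lists.

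Genes came from the RefSeq table of GRCm38.p6, which gives both outer coordinates of a gene. Start sites and strands came from the RefSeq promoter table of that build. Summits were paired within 200 bp and counted at ends (1 kb), in bodies and within 20 kb. Chromosome 1 genes with gaps under 1 Mb made the cluster. Percentile ranks average ties. The work used Python 3.11.15, pandas 2.3.3 and numpy 2.4.6, and the counting was tested on simulated data.

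The members, gene lists and counts were chosen with earlier results of these data known. Named by rule were the 9 genes, the nearest coding genes of their shared summits, the coding genes of the cluster, other RGS genes with a shared end or body summit, and up to 4 genes of each further list by mean rank. Rgs12, Rgs22 and their neighbours were named after their values were seen, and the length bands, CpG ratios and motifs were added then. No test was made: 2 samples of 1 group allow none between conditions. The alternatives were other pairing distances, score filters, end and flank widths and each replicate alone.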

Additional observations from a re-analysis of the deposited data

How the results depend on the processing

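The 3 genes with a shared end summit, the 5 with one within 20 kb and the 2 with one in the body came out the same with pairing distances of 50 and 500 bp, as did the 5 shared summits of the cluster. With scores at or above the median of each list, the end and 20 kb counts stayed at 3 and 5, the body count was 1 (Rgs10) and the cluster count 2. With replicate 2 reduced to its highest scores these were 3, 5, 1 (Rgs10) and 3. Ends of 500 bp gave 2 genes, without Rgs3, and ends of 2500 bp gave 4, with Rgs10, whose site lies 1043 bp out. A flank of 50 kb gave 6 genes, Rgs13 being added. Other body limits, a flank of 10 kb and other cluster margins left the counts as they were. The shares of all coding genes were not recounted under any of these settings. The counts therefore show how the numbers of the 9 genes move, not how they compare with coding genes. Summits within 1 kb were merged for the cluster count alone. The shared cluster sites all lie farther apart than that, so merging could not change this count. The close pair of Rgs10 body sites was not merged. Leaving out 1 replicate and using the other list alone, the counts ran from 3 to 5 for ends, from 2 to 4 for bodies, from 6 to 9 for 20 kb and from 6 to 22 for the cluster, the higher value being replicate 2 alone each time. No paired analysis was possible because the results come from no test and both lists used are of KAP1 samples, with no list of the input samples to pair them with here. Depth is unknown, so a missing replicate 1 summit, as at Rgs16, does not show that KAP1 was absent.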
